A study of Mus musculus with 30 samples.

Results

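The collagen genes of the mouse were followed in RNA from cardiac myocytes of wild-type mice and of Myh6-Cre:DspW/F mice, which the series title calls haplo-insufficient for desmoplakin. The members were all protein-coding genes in the deposited table whose symbol is Col, a number, a and a number. This gave 44 genes of 52550 in the table. They were divided by the kind of assembly that the proteins form into 11 fibrillar, 6 basement membrane and 27 other collagen genes. The last class held 9 fibril-associated (FACIT), 6 beaded-filament, 4 transmembrane, 3 network, 2 multiplexin and 1 anchoring-fibril genes and 2 that fit none of these.

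There were 30 libraries in 6 groups, with 5 per group. Wild type and Myh6-Cre:DspW/F, referred to as heterozygotes, were each sampled when 3 months old, when 6 months old under regular activity, and when 6 months old with endurance treadmill exercise, to which the labels tie a period of 3 months. The Myh6 promoter drives Cre in cardiac myocytes, and Dsp encodes desmoplakin, a linker of cell junctions and intermediate filaments. It is not stated if wild-type mice carried Cre too, or whether the 5 libraries of a group come from separate animals. The tests therefore set differences against the spread between libraries within groups, estimated over all 30, and not against a known spread between animals.

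Collagens are secreted proteins whose chains wind around each other into a stiff helix and are then assembled outside the cell. In the heart, fibrillar collagens type I and type III form the fibres of the interstitium and are made mainly by fibroblasts. Type IV collagen forms the mesh of the basement membrane around myocytes and capillaries, and type VI collagen forms beaded filaments beside it.

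Type IV genes lie head to head in pairs, which is shown first because 1 pair holds the collagen genes with the highest levels here. On mm10, Col4a1 (chr8:11198423-11312826, minus strand) and Col4a2 (chr8:11312805-11449287, plus strand) start at positions 11312826 and 11312805, and their annotated first exons share 22 bases on opposite strands. The table does not state its strand setting, so reads in that stretch could be given to either gene. Col4a4 (chr1:82448423-82586849, minus strand) and Col4a3 (chr1:82586921-82722059, plus strand) are separated by 71 bases, which are the whole interval between their starts. Read 5′ to 3′ on the minus strand, from beside Col4a3 to beside Col4a4, the interval in the RefSeq promoter table for GRCm38.p6 (chr1:82586850-82586920) is as follows.
Col4a4 and Col4a3 interval: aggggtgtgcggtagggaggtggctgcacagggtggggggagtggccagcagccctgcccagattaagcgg
Col4a6 and Col4a5 on chromosome X are 1308 bases apart.

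The 250 bases upstream of 3 genes that passed the test with age in heterozygotes, Col3a1, Col5a1 and Col6a3, are also shown, because these genes differ in the short motifs they hold. Capitals mark matches on either strand to 3 motifs. The first is TATAA, which resembles the TATA box bound in many promoters with a focused start. The second is GGGCGG, known as the core of the GC box of Sp-family factors. The third is CCAAT, known as the box bound by the factor NF-Y. A match on the minus strand appears as the reverse complement. All 3 windows come from the RefSeq promoter table for GRCm38.p6 and overlap no annotated exon. The Col3a1 window is chr1:45311288-45311537 on the plus strand, the Col5a1 window is chr2:27886175-27886424 on the plus strand, and the Col6a3 window is chr1:90843972-90844221 on the minus strand.
Col3a1: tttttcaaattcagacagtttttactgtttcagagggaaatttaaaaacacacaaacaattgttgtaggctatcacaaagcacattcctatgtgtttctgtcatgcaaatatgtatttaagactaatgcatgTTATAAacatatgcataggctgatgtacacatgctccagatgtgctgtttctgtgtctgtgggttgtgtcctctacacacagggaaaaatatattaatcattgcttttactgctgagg
Col5a1: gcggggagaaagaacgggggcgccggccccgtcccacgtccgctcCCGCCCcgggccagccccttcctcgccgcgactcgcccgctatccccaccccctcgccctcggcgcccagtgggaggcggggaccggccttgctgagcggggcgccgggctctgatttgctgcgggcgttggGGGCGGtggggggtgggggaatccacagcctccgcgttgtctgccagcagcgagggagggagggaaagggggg
Col6a3: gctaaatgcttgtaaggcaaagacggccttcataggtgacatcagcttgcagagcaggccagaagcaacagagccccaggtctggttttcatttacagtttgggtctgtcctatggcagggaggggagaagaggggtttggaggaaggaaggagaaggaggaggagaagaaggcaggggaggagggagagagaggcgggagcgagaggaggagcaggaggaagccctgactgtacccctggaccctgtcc
The Col3a1 window held 2 overlapping TATAA matches, 1 on each strand, and no GGGCGG. The Col5a1 window held 2 GGGCGG matches and no TATAA, and the Col6a3 window held none of the 3 motifs. Over all 32851 windows of the table, searched on both strands, 22.8% held TATAA, 32.7% GGGCGG and 33.8% CCAAT. Of the 38 windows of the 35 collagen genes with an entry, 7, 22 and 13 held them. These are matches of letters and say nothing about binding.

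Levels are given as CPM, the count of a gene scaled to a common library size with TMM factors, and between genes as CPM per kilobase of annotated exon. That length joins the exons of all annotated transcripts of a gene, 12426 bases for Col1a2 and 6563 for Col1a1. Ranks and ratios between genes thus depend on the annotation. Per kilobase, the order over all 30 libraries was led by the basement membrane genes Col4a1 (41.4 CPM per kilobase), Col4a2 (33.8) and Col4a5 (8.45). Col3a1 followed with 6.98 and Col6a1 with 6.35 CPM per kilobase. Col15a1 (2.55), Col1a2 (2.37), Col6a2 (1.78), Col5a1 (1.44) and Col1a1 (1.30 CPM per kilobase) came next. The other 3 type IV genes, Col4a3, Col4a4 and Col4a6, lay between 0.112 and 0.133 CPM per kilobase, far under Col4a1.

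A filter on low counts kept 32 of the 44 genes for testing (8 fibrillar, 6 basement membrane and 18 other). The 12 genes that it left out were rare. The cartilage collagen genes Col9a1 and Col2a1 had 0 and 8 counts over all 30 libraries, and Col6a4 had 1. Col24a1, Col19a1, Col26a1, Col6a5, Col9a3, Col11a1, Col9a2, Col28a1 and Col25a1 had 32 to 149 counts in total. These 12 genes were not in the fit of all 30 libraries.

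The libraries held 11232143 to 23710331 counts, and 8.90% to 46.9% of them came from mitochondrially encoded transcripts. Dsp lay at 573 to 741 CPM in 4 of 5 heterozygotes at 3 months and at 1126 in the library labelled heterozygote 3, against 752 to 1299 in wild type. It lay at 581 to 679.8 against 636 to 1021 CPM at 6 months and at 705 to 939 against 928 to 1907 with exercise. Of the marker lists, the 10 myocyte genes summed to 64370 to 106400 CPM. The 12 fibroblast markers summed to 131 to 790.1, the 12 endothelial markers to 306 to 1628, and the 10 macrophage markers to 12.4 to 131 CPM. Transcripts known from other cell types were thus counted in every library, and fewer cells of a type and less RNA per cell cannot be told apart in such bulk samples. Spike-in rows differ between the 3-month, 6-month and exercised sets, so set and age, or set and exercise, cannot be told apart. Both genotypes are in every set.

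Exercised heterozygote 4 and exercised wild type 1 stood apart in collagen. Exercised heterozygote 4 was the highest library of its group for 26 of the 32 tested collagen genes (81.2%, against 28.8% of all genes tested). Exercised wild type 1 was the highest of its group for 23 (71.9%, against 26.8% of all genes). Summed CPM in exercised heterozygote 4 was 790.1 for fibroblast, 207 for activated fibroblast and 131 for macrophage markers, where the other 4 of its group reached at most 270, 26.5 and 33.7. Exercised wild type 1 had the largest mitochondrial share of all libraries (46.9%) and the highest endothelial sum (1628). Counts and medians that rest on these groups are therefore also given without both libraries, or without the 1 on which they turn. This alternative was chosen after seeing the data.

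Collagen genes took a small share of the counts. The share of all gene counts was 0.0954 ± 0.0244% in wild type (mean ± SD, n = 5) against 0.0793 ± 0.0116% in heterozygotes at 3 months. It was 0.0829 ± 0.00857% and 0.130 ± 0.0186% at 6 months with regular activity, and 0.0543 ± 0.0149% and 0.0708 ± 0.0530% with exercise. At 6 months the 5 heterozygotes spanned 0.112 to 0.157% and the 5 wild types 0.0719 to 0.0924%, with no overlap. The fibrillar share was 0.0290 ± 0.00428% against 0.0124 ± 0.000745%, the basement membrane share 0.0822 ± 0.0153% against 0.0596 ± 0.00801%, and the other share 0.0188 ± 0.00266% against 0.0110 ± 0.000767%. Exercised heterozygote 4 alone reached 0.165%, and the other exercised heterozygotes lay at 0.0412% to 0.0510%.

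**Figure D1:**
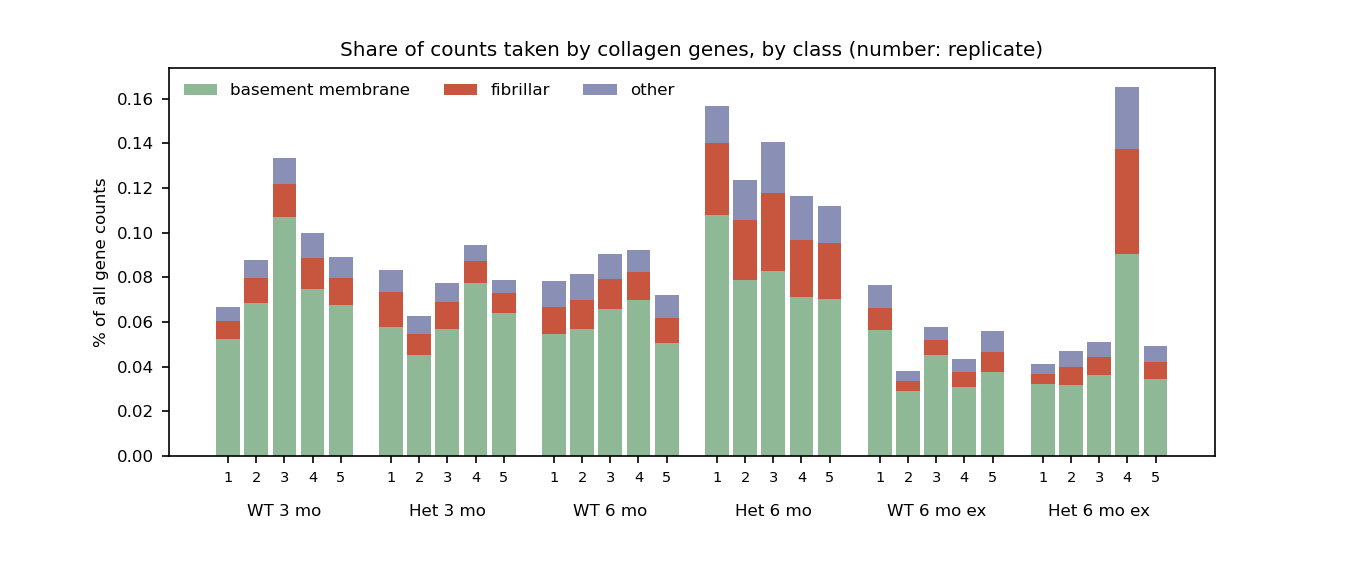
Share of all gene counts taken by collagen genes in each of the 30 libraries (bars, in percent), stacked by class, with the replicate number under each bar and the group below it. All 5 heterozygotes at 6 months (Het 6 mo) stand above all 5 wild types of that age, and replicate 4 is the only exercised heterozygote (Het 6 mo ex) above 0.0510%.

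The type III and type I genes Col3a1 and Col1a1 had the largest genotype differences of the 32 at 6 months. In the following, values are CPM in replicates 1 to 5 of a group, in that order. Col1a1, the alpha1 chain of type I collagen, was at 8.28, 6.58, 7.50, 5.04 and 9.24 CPM in wild type at 3 months and at 8.84, 4.29, 7.94, 6.88 and 5.09 in heterozygotes. At 6 months it was at 6.89, 6.41, 6.32, 7.07 and 5.96 in wild type and at 18.5, 16.1, 18.7, 13.1 and 18.9 in heterozygotes. With exercise it was at 7.91, 2.72, 3.81, 3.36 and 5.80 in wild type and at 4.35, 5.74, 3.36, 26.4 and 5.47 in heterozygotes. The heterozygotes at 6 months thus lay above every wild type of any group, and only exercised heterozygote 4 lay higher. At 6 months the Col1a1 mean was 6.53 ± 0.450 in wild type and 17.1 ± 2.49 CPM in heterozygotes (SD, n = 5), a log2 fold change of 1.38 (SE 0.378, 2.61-fold) that did not pass edgeR's quasi-likelihood test (adjusted p = 0.213).

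Col1a2, the alpha2 chain of type I, also had its genotypes apart at 6 months. It was at 20.7, 19.7, 30.7, 20.9 and 25.8 CPM in wild type and 27.2, 17.5, 22.2, 24.7 and 18.2 in heterozygotes at 3 months. At 6 months Col1a2 was at 22.6, 22.5, 25.8, 22.6 and 22.7 in wild type and at 50.1, 46.8, 61.98, 40.6 and 49.2 in heterozygotes, and with exercise at 37.5, 11.3, 19.8, 15.7 and 18.6 in wild type and at 12.1, 22.7, 19.3, 115 and 19.8 in heterozygotes. The groups did not overlap at 6 months, and they overlapped at 3 months and with exercise. The 6-month log2 fold change of Col1a2 was 1.10 (SE 0.409, edgeR adjusted p = 0.410). Per kilobase, Col1a1 was at 0.534 ± 0.0540 of the Col1a2 level in wild type against 0.651 ± 0.0623 in heterozygotes at 6 months (mean ± SD, n = 5).

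Col3a1 encodes the only chain of type III collagen. Its values were 30.3, 55.1, 62.2, 64.4 and 44.4 CPM in wild type and 74.1, 40.4, 55.8, 40.7 and 32.9 in heterozygotes at 3 months. At 6 months Col3a1 was at 51.4, 58.03, 55.7, 56.8 and 45.6 in wild type and 167, 124, 184, 126 and 141 in heterozygotes. With exercise Col3a1 was at 56.6, 20.6, 26.4, 29.7 and 36.5 in wild type and at 23.02, 44.04, 42.1, 229 and 38.3 in heterozygotes. The lowest heterozygote at 6 months stood well above the highest wild type, and 4 of 5 exercised heterozygotes lay within the range of exercised wild type. The means at 6 months were 53.5 ± 5.09 and 148 ± 26.4 CPM, a log2 fold change of 1.47 (SE 0.429, 2.77-fold, edgeR adjusted p = 0.269). The per-kilobase ratio of Col3a1 to Col1a1 was 5.49 ± 0.471 in wild type against 5.84 ± 0.725 in heterozygotes at 6 months, ranges that overlapped. On the annotation used, an exon of Col3a1 overlaps one of Gm47302 on the same strand.

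Type V collagen is a minor component of type I fibrils that sets their diameter. Col5a1 was at 9.25, 11.8, 13.9, 15.7 and 15.5 CPM in wild type and 10.3, 6.97, 12.2, 7.23 and 9.26 in heterozygotes at 3 months. At 6 months Col5a1 was at 17.3, 12.1, 11.6, 12.1 and 10.2 in wild type and at 16.9, 16.1, 24.45, 15.8 and 15.8 in heterozygotes, and with exercise at 12.1, 7.76, 8.32, 8.05 and 7.49 in wild type and at 5.11, 9.75, 10.6, 22.9 and 10.9 in heterozygotes. The genotypes overlapped in every set, at 6 months through wild type 1. Its 6-month log2 fold change was 0.49 (SE 0.242, edgeR adjusted p = 0.565). Exons of Col5a1 overlap those of 2810430I11Rik and Gm13372, and exons of Col15a1 those of Gm12426 on the opposite strand, so reads could be shared there.

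Col5a2 is the partner chain of Col5a1 and is a neighbour of Col3a1 on chromosome 1. It was at 7.03, 7.52, 8.30, 8.76 and 3.41 CPM in wild type and 9.38, 5.10, 7.87, 4.34 and 6.51 in heterozygotes at 3 months. At 6 months Col5a2 was at 6.84, 5.52, 7.22, 7.28 and 7.70 in wild type and at 19.6, 12.4, 21.01, 16.8 and 16.9 in heterozygotes, and with exercise at 12.6, 2.13, 5.15, 5.12 and 6.42 in wild type and at 3.77, 7.74, 6.92, 44.5 and 6.57 in heterozygotes. At 6 months the groups did not overlap, as for Col3a1. The log2 fold change of Col5a2 at that age was 1.33 (SE 0.478, edgeR adjusted p = 0.388).

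Col11a2, a fibrillar chain known from cartilage, was rare and had a lower mean in heterozygotes than in wild type at 6 months. It was at 4.63, 2.69, 1.84, 3.71 and 3.92 CPM in wild type and 1.86, 2.61, 3.49, 2.28 and 4.38 in heterozygotes at 6 months, and at 1.46, 2.37, 2.99, 3.62 and 2.75 in wild type and at 1.34, 2.07, 1.54, 1.12 and 1.03 in heterozygotes with exercise. At 3 months Col11a2 was at 1.74, 3.17, 6.76, 4.98 and 3.60 in wild type and at 2.42, 4.78, 4.91, 1.31 and 3.42 in heterozygotes. Exercised heterozygotes had the lowest mean, and the groups overlapped in each set. The other tested fibrillar genes, Col5a3 and Col27a1, had 6-month genotype log2 fold changes of 0.68 (SE 0.455) and 0.14 (SE 0.363), with edgeR adjusted p = 0.726 and 0.960.

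Among basement membrane genes the genotype gap at 6 months was smaller. Col4a1, the alpha1 chain of type IV collagen, was at 249.9, 363, 564, 351 and 347 CPM in wild type and 256, 209, 291, 365 and 327 in heterozygotes at 3 months. At 6 months Col4a1 was at 279, 270.0, 307, 346 and 236 in wild type and at 509.6, 373, 463, 369 and 401 in heterozygotes, and with exercise at 462, 139.6, 243, 152 and 164 in wild type and at 163, 196, 205, 465 and 201 in heterozygotes. The 6-month groups did not overlap, although wild type at 3 months reached higher than any heterozygote. The log2 fold change of Col4a1 at 6 months was 0.56 (SE 0.291, edgeR adjusted p = 0.613).

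Its head-to-head partner Col4a2, the alpha2 chain, had a smaller difference. Col4a2 was at 217, 256, 395, 266 and 253 in wild type and at 199.7, 164, 207, 284 and 216 in heterozygotes at 3 months. At 6 months it was at 201, 197, 235, 254 and 169.9 in wild type and at 369, 257, 269, 219 and 263 in heterozygotes, and with exercise at 314, 137, 197, 118 and 159 in wild type and at 139.7, 156, 151, 313 and 140.3 in heterozygotes. The genotypes overlapped in all 3 sets, and the 6-month log2 fold change was 0.38 (SE 0.238, edgeR adjusted p = 0.696). The per-kilobase ratio of Col4a1 to Col4a2 was 1.21 ± 0.0288 in wild type against 1.38 ± 0.133 in heterozygotes at 6 months. Col4a5, the third type IV gene by level, had a log2 fold change of -0.06 (SE 0.167), close to 0, with means of 58.6 ± 4.69 and 56.2 ± 11.5 CPM. Col4a3, Col4a4 and Col4a6 were at 0.79, 0.41 and 0.83 on the log2 scale, with SEs of 0.654, 0.574 and 0.574.

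Type VI collagen is built from the chains of Col6a1, Col6a2 and Col6a3 and links the basement membrane to the interstitium. Col6a1 was at 9.53, 21.6, 29.6, 25.8 and 23.7 CPM in wild type and 18.9, 16.4, 23.1, 17.3 and 11.6 in heterozygotes at 3 months. At 6 months Col6a1 was at 30.7, 30.3, 30.2, 28.6 and 25.7 in wild type and at 36.4, 47.8, 63.2, 47.3 and 42.6 in heterozygotes, and with exercise at 38.7, 10.1, 15.1, 19.2 and 25.4 in wild type and at 11.1, 26.2, 19.4, 67.5 and 21.05 in heterozygotes. The genotypes were apart at 6 months and overlapped in the other sets. Its 6-month log2 fold change was 0.70 (SE 0.361, edgeR adjusted p = 0.605).

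Col6a2, which lies next to Col6a1 on chromosome 10, had lower levels per kilobase. It was at 7.93, 10.2, 16.4, 18.6 and 11.8 in wild type and at 13.1, 9.96, 14.1, 7.78 and 7.76 in heterozygotes at 3 months. At 6 months Col6a2 was at 16.8, 14.7, 15.3, 11.4 and 12.5 in wild type and at 21.1, 23.9, 30.1, 24.3 and 27.04 in heterozygotes, and with exercise at 20.5, 5.63, 9.21, 6.82 and 12.4 in wild type and at 6.20, 10.6, 10.6, 37.2 and 10.04 in heterozygotes. The 6-month genotypes again did not overlap (log2 fold change 0.84, SE 0.361, edgeR adjusted p = 0.502).

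Col6a3, the longest type VI chain, was at 5.70, 11.3, 15.004, 19.1 and 10.9 CPM in wild type and 14.3, 13.1, 13.98, 4.13 and 6.26 in heterozygotes at 3 months. At 6 months Col6a3 was at 15.2, 17.5, 13.2, 13.9 and 10.7 in wild type and at 24.6, 29.4, 34.2, 32.7 and 27.2 in heterozygotes, and with exercise at 18.7, 4.74, 6.73, 6.55 and 11.5 in wild type and at 6.03, 8.99, 8.39, 22.1 and 9.38 in heterozygotes. The 5 heterozygotes at 6 months lay above all other libraries in the study. The 6-month genotype log2 fold change was 1.07 (SE 0.367, edgeR adjusted p = 0.357).

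The multiplexins Col15a1 and Col18a1 encode basement membrane zone proteoglycans, and Col18a1 is the source of endostatin. Col15a1 was at 10.8, 12.9, 16.9, 15.5 and 21.03 in wild type and at 14.3, 11.4, 13.4, 8.05 and 6.26 in heterozygotes at 3 months. At 6 months it was at 17.7, 19.5, 14.2, 14.6 and 16.5 in wild type and at 17.4, 21.2, 36.4, 27.2 and 27.7 in heterozygotes, and with exercise at 25.5, 3.97, 10.2, 9.86 and 15.7 in wild type and at 5.69, 13.9, 11.1, 36.7 and 10.9 in heterozygotes. The genotypes overlapped in each set. Col18a1 was at 14.5, 7.23, 8.76, 4.29 and 5.05 in wild type and at 6.11, 4.46, 5.86, 7.78 and 6.17 in heterozygotes at 3 months. At 6 months it was at 7.49, 5.17, 6.32, 6.31 and 5.91 in wild type and at 15.3, 7.84, 11.4, 10.8 and 8.23 in heterozygotes, and with exercise at 11.6, 4.03, 4.19, 2.93 and 7.41 in wild type and at 4.19, 5.18, 3.08, 8.63 and 6.06 in heterozygotes. For Col18a1 the genotypes did not overlap at 6 months. The 6-month log2 fold changes were 0.66 for Col15a1 (SE 0.389, edgeR adjusted p = 0.669) and 0.78 for Col18a1 (SE 0.311, edgeR adjusted p = 0.436).

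Col8a1 encodes a short-chain network collagen of vessel walls. It was at 3.41, 2.88, 4.52, 3.15 and 5.31 CPM in wild type and 4.08, 3.16, 3.78, 4.13 and 3.50 in heterozygotes at 3 months. At 6 months Col8a1 was at 7.34, 4.38, 6.08, 10.3 and 5.38 in wild type and at 15.6, 8.13, 14.4, 8.67 and 12.9 in heterozygotes, and with exercise at 10.8, 3.85, 3.24, 3.996 and 4.28 in wild type and at 3.18, 8.71, 6.08, 49.5 and 5.32 in heterozygotes. Its value in exercised heterozygote 4 was the highest of the 30 libraries. The 6-month log2 fold change was 0.83 (SE 0.495, edgeR adjusted p = 0.671).

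**Figure D2:**
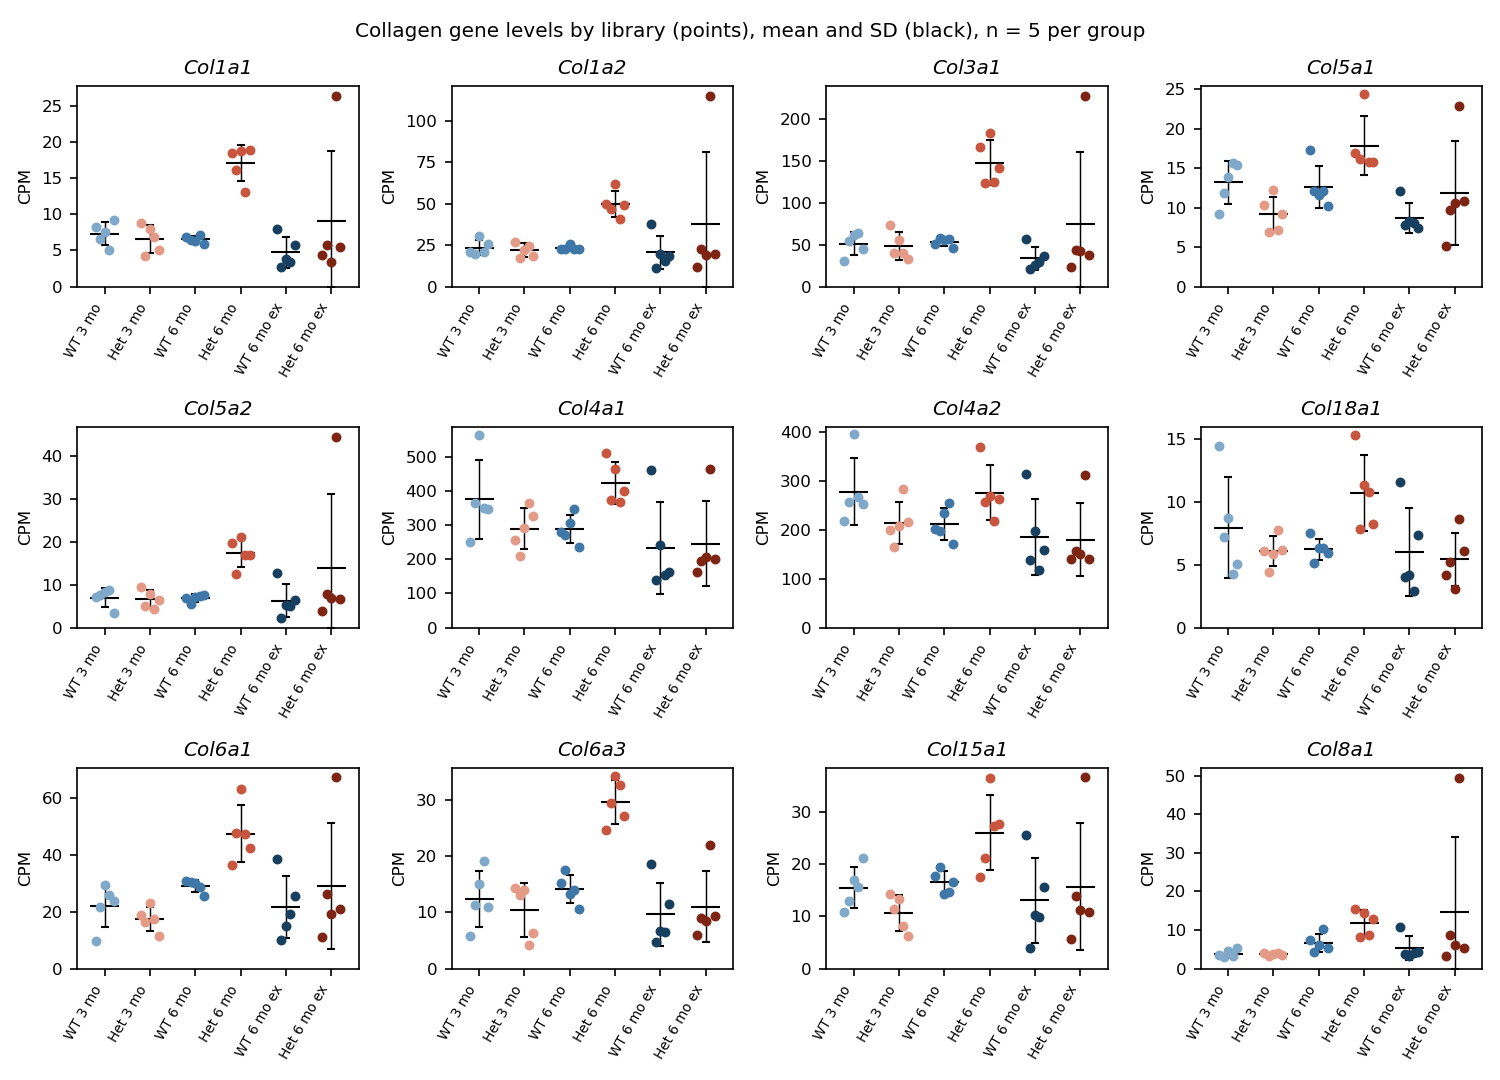
CPM of 12 collagen genes in each library (points) by group, with the mean and SD in black (n = 5 per group). Het 6 mo stands above WT 6 mo without overlap for Col1a1, Col1a2, Col3a1, Col5a2, Col4a1, Col6a1, Col6a3 and Col18a1, and in most panels the wide SD of Het 6 mo ex comes with 1 library, replicate 4.

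The genotype comparison at 6 months asks whether heterozygosity for Dsp goes with other collagen levels under regular activity. Of the 32 genes, 28 had a log2 fold change above 0, against 49.5% of all 15587 genes tested, and their median was 0.62 against -0.0035 over all genes. The medians were 0.89 for the fibrillar genes (7 of 8 above 0), 0.48 for the basement membrane genes (5 of 6) and 0.62 for the others (16 of 18). The 4 genes below 0 were Col4a5, Col11a2, Col22a1 and Col23a1. For 10 genes every heterozygote lay above every wild type (1.86% of all genes did so): Col1a1, Col1a2, Col3a1, Col5a2, Col4a1, Col4a3, Col6a1, Col6a2, Col6a3 and Col18a1. None of the 32 passed edgeR's quasi-likelihood test at an adjusted p under 0.05, where 21 of all genes did (0.135%). At an unadjusted p under 0.05 there were 8 (8.79% of all genes).

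The count at 6 months depended on which libraries set the shared estimate of the spread. Without exercised wild type 1 and exercised heterozygote 4, which do not enter this contrast, 5 collagen genes passed edgeR's test, all higher in heterozygotes, where 0.738% of all genes were called in either direction. These were Col1a1 (log2 fold change 1.41, adjusted p = 0.000238), Col1a2 (1.12, 0.000238), Col3a1 (1.499, 0.000606), Col5a2 (1.35, 0.00398) and Col6a2 (0.87, 0.0456). The same 5 passed with both exercised groups left out (0.543% of all genes were called), and 9 of 31 with the 10 libraries of the comparison alone (1.51%). DESeq2's Wald test called 1, Col1a1 (0.422% of all genes), and limma-voom 7 (3.1% of all genes). Here and below, limma-voom was run with quality weights, so libraries could count unequally in its fits. The fold changes themselves hardly moved: over 12 alternatives that of Col3a1 ran from 1.43 to 1.51 and that of Col1a1 from 1.30 to 1.42.

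**Figure D3:**
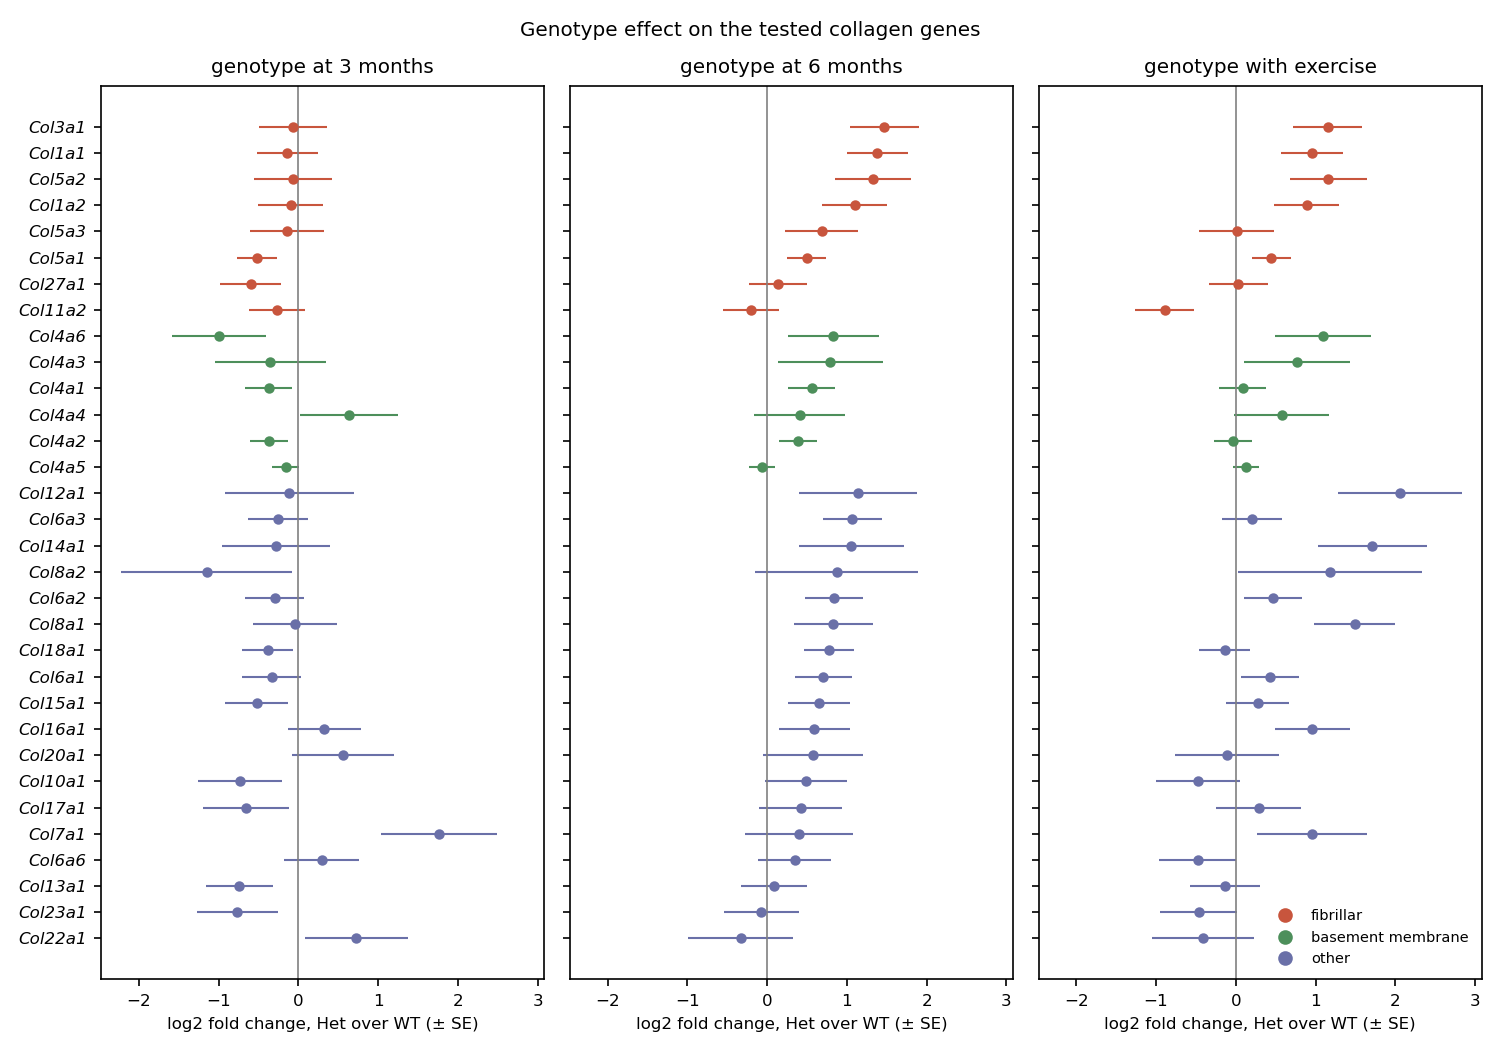
Log2 fold change of heterozygotes over wild type (points, bars ± SE) for the 32 tested collagen genes, by class, at 3 months, at 6 months and with exercise. At 3 months most genes lie below 0 or near it, and at 6 months 28 of 32 lie above 0.

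At 3 months no collagen gene differed between genotypes by edgeR's test, where 0.192% of all genes did. Only 6 of 32 genes had a log2 fold change above 0 (49.7% of all genes did), with a median of -0.28, and all 8 fibrillar genes lay below 0 (median -0.14). With limma-voom 15 lay above 0 (median -0.07), without wild type 3 there were 11 (-0.18) and without wild type 4 there were 10 (-0.16), so the count rested in part on single libraries and on the tool. Without the library labelled heterozygote 3, whose Dsp lay within the wild-type range, there were 6 (-0.37). Without wild type 1 there were 8 (-0.40). At an unadjusted p under 0.05 there were 2 genes, against 11% of all genes. These were Col7a1, the anchoring-fibril gene, at 1.76 (SE 0.725, edgeR adjusted p = 0.351) and Col5a1 at -0.52 (SE 0.247, edgeR adjusted p = 0.433). Col7a1 had 316 counts in all 30 libraries together. DESeq2 and limma-voom also called 0 collagen genes here, and in the comparisons of genotype with exercise, of age in wild type and of both interactions.

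With age, 3 fibrillar and 2 type VI collagen genes rose in heterozygotes. From 3 to 6 months, 5 of the 32 passed edgeR's test, all higher (1.46% of all genes were called higher): Col6a3, Col5a1, Col6a1, Col3a1 and Col1a1. Col6a3 had a log2 fold change of 1.51 (SE 0.374, edgeR adjusted p = 0.0254), Col6a1 of 1.44 (SE 0.370, 0.0312) and Col3a1 of 1.60 (SE 0.431, 0.0401). Col1a1 had 1.36 (SE 0.380, edgeR adjusted p = 0.0455) and Col5a1 0.95 (SE 0.246, 0.0278). In each of these 5 genes all heterozygotes at 6 months lay above all heterozygotes at 3 months, as they did for 13 of 32 genes (4.4% of all genes). The other 8 were Col1a2, Col5a2, Col4a1, Col4a3, Col6a2, Col8a1, Col15a1 and Col18a1. Col6a2 (adjusted p = 0.0540), Col8a1 (0.0673) and Col15a1 (0.0705) missed edgeR's threshold. The medians were 1.13 for fibrillar, 0.74 for basement membrane and 0.97 for other genes, against -0.02 over all genes. In all, 27 of 32 lay above 0 (47.8% of all genes), and 16 had an unadjusted p under 0.05 (19.6% of all genes).

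These 5 calls lay near the threshold. None of them remained without heterozygote 4 or 5 at 3 months or heterozygote 3 at 6 months. Col6a3 alone remained without heterozygote 2 at 3 months. Without the library labelled heterozygote 3 at 3 months, or without heterozygote 1 or 5 at 6 months, Col5a1, Col6a1 and Col6a3 remained. Without heterozygote 4 at 6 months Col5a1 and Col6a3 remained, and without heterozygote 2 at that age all but Col1a1. Over these 10 fits the log2 fold changes stayed between 1.30 and 1.66 for Col6a3 and between 1.24 and 1.49 for Col1a1. Without the 2 exercised libraries that stood apart, 12 genes were called, the 5 included, where 4.14% of all genes were called higher.

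In wild type, no collagen gene passed edgeR's test with age, where 0.86% of all genes did. At an unadjusted p under 0.05 there was 1 (12.2% of all genes), the transmembrane collagen gene Col13a1. The median over the 32 genes was -0.02, and 15 lay above 0 (51.6% of all genes). With limma-voom 19 lay above 0 (median 0.17), and the median was 0.08 without wild type 3 at 3 months and 0.07 without wild type 4. The genotypes' age effects were compared by their interaction, which uses differences within each age set only. The interaction was above 0 for 29 of 32 genes (46.4% of all genes) with a median of 1.03, and none passed edgeR's test (0 of all genes did). Col1a1 had 1.52 (SE 0.536, edgeR adjusted p = 0.493), Col3a1 1.54 (SE 0.600, 0.553) and Col5a1 1.01 (SE 0.346, 0.468). At an unadjusted p under 0.05 there were 11, against 8.04% of all genes. Without the 2 exercised libraries that stood apart, Col1a1 (1.55, adjusted p = 0.0474) and Col1a2 (1.22, 0.0474) passed edgeR's test, the only calls among all genes in that fit. The age comparison in heterozygotes and the genotype comparison at 6 months share the 6-month heterozygotes, so their values are not independent of each other.

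With exercise, 2 collagen genes fell in heterozygotes. Col6a3 fell with exercise from 29.6 ± 3.92 to 10.97 ± 6.33 CPM (SD, n = 5), a log2 fold change of -1.42 (SE 0.374, edgeR adjusted p = 0.0165). Col18a1 fell from 10.7 ± 3.004 to 5.43 ± 2.11 CPM (-0.97, SE 0.316, edgeR adjusted p = 0.0483). These 2 of 32 were the only calls, where 3.48% of all genes were called lower. For Col6a3 all exercised heterozygotes lay below all others of that genotype at 6 months (4.02% of all genes did so), exercised heterozygote 4 included. In all, 5 of 32 genes lay above 0 (49.6% of all genes did) and 27 below (median -0.55), with medians of -0.74 for fibrillar, -0.26 for basement membrane and -0.58 for other genes. Without exercised heterozygote 4 only 2 lay above 0, with a median of -1.07, and without both libraries that stood apart 2, with a median of -1.097. At an unadjusted p under 0.05 there were 10, against 22.3% of all genes.

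The count in this comparison depended on exercised heterozygote 4. Without it 14 collagen genes passed edgeR's test, all lower with exercise, where 3.72% of all genes were called lower. Without it and exercised wild type 1, 15 passed (5.33% of all genes were called lower). In that fit Col3a1 was at -2.04 on the log2 scale (adjusted p = 6.23e-06), Col1a1 at -1.88 (2.66e-06), Col1a2 at -1.46 (2.66e-06), Col5a2 at -1.499 (0.000383) and Col4a1 at -1.17 (0.000232), by edgeR's test. With all libraries, Col3a1 was at -0.98 (SE 0.424, edgeR adjusted p = 0.165) and Col1a1 at -0.90 (SE 0.375, 0.142). Col8a1 changed sign, from 0.30 to -1.06 (adjusted p = 0.00738). Col6a3 was called in each of the 10 fits that left out 1 library. Col18a1 lost its call in 7 of them, without heterozygote 1, 3 or 4 or exercised heterozygote 1, 2, 3 or 5, with values of -0.81 to -1.06. The exercised set differed from the other 6-month set in spike-in rows, so exercise and set cannot be told apart here.

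**Figure D4:**
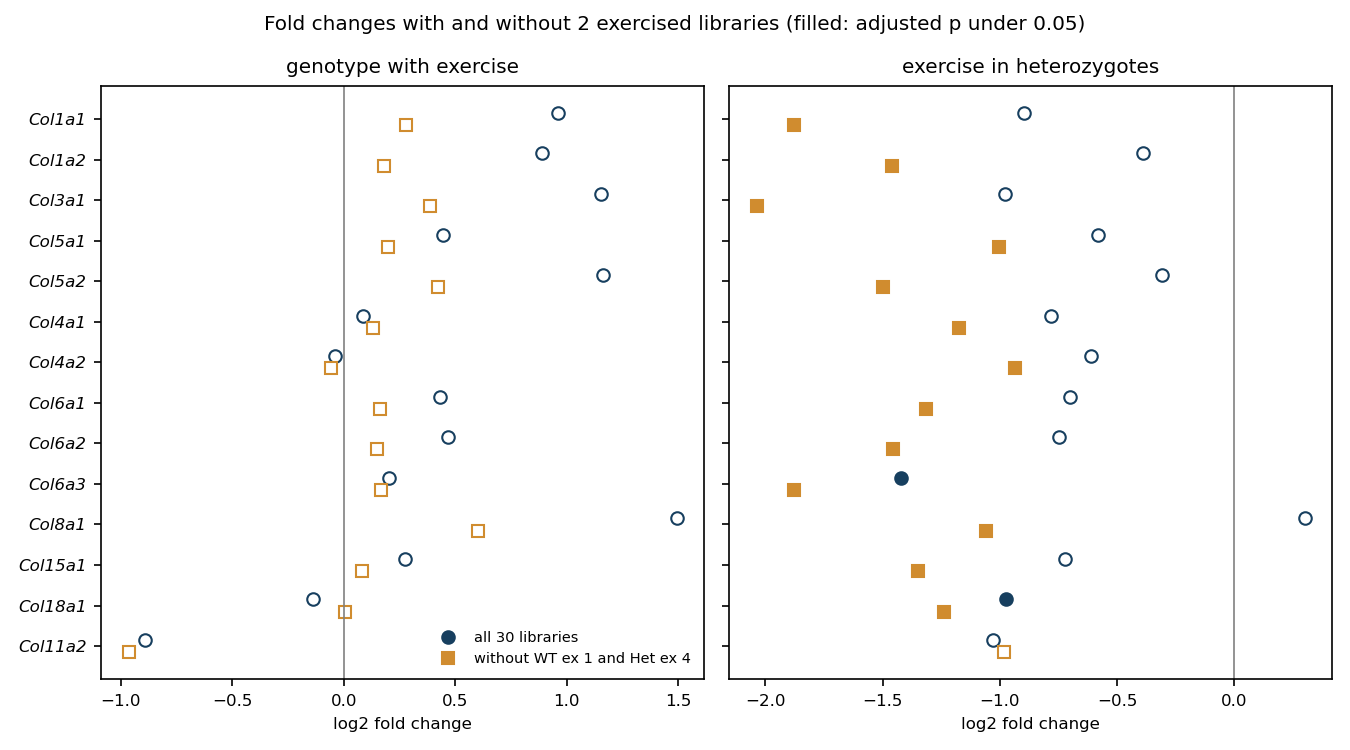
Log2 fold changes of 14 collagen genes with all 30 libraries (circles) and without exercised wild type 1 and exercised heterozygote 4 (squares), for genotype with exercise and for exercise in heterozygotes. Filled marks passed edgeR's test at an adjusted p under 0.05: 2 of the circles on the right and 13 of the squares, and none on the left.

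In wild type no collagen gene passed edgeR's test with exercise, where 9.69% of all genes did. Only 5 of 32 lay above 0 (50.7% of all genes did) and 27 below, with a median of -0.33 and all 8 fibrillar and all 6 basement membrane genes below 0. Without exercised wild type 1, 3 lay above 0 and the median was -0.64, the same as without both libraries that stood apart. Col5a1 had -0.53 (SE 0.246, edgeR adjusted p = 0.184) and was the 1 gene at an unadjusted p under 0.05 (22.8% of all genes). With all libraries DESeq2 called 0 collagen genes and limma-voom 9, where limma-voom called 18% of all genes. Without the 2 libraries that stood apart, 6 genes passed edgeR's test, all lower with exercise (5.01% of all genes were called lower), among them Col3a1 (-0.92, edgeR adjusted p = 0.0122) and Col5a1 (-0.68, 0.0322). Whether the exercise effect differed between genotypes was tested by the interaction, which no collagen gene passed (0.0128% of all genes did). It was above 0 for 9 of 32 genes (51.3% of all genes), with a median of -0.21. Without exercised heterozygote 4 it was above 0 for 2 (median -0.75), without exercised wild type 1 for 13 (-0.05) and without both for 3 (-0.54). It was -0.92 for Col18a1 (SE 0.445, the 1 gene at an unadjusted p under 0.05, against 4.91% of all genes) and -0.87 for Col6a3 (SE 0.524), both with edgeR adjusted p = 0.999.

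With exercise the genotypes did not differ by edgeR's test in any collagen gene, where 0.404% of all genes did. With all libraries 23 of 32 lay above 0 (48.6% of all genes did; median 0.36), and 8 had an unadjusted p under 0.05 (9.78% of all genes). The direction of the median rested on 1 library. Without exercised heterozygote 4, 13 of 32 lay above 0 and the median was -0.16, without exercised wild type 1 the values were 23 and 0.63, and without both 20 and 0.16. The FACIT genes Col12a1 and Col14a1 had 2.05 (SE 0.778) and 1.71 (SE 0.684), Col8a1 1.49 (SE 0.508) and Col3a1 1.15 (SE 0.430), with edgeR adjusted p = 0.310, 0.368, 0.254 and 0.313. Without exercised wild type 1 and heterozygote 4 the same 4 genes were at 0.68, 0.66, 0.60 and 0.39. Without exercised heterozygote 4, Col3a1 averaged 36.9 ± 9.53 CPM in the 4 exercised heterozygotes left, and in all 5 exercised wild types 33.9 ± 13.9.

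Exercised heterozygotes were also set against wild type with regular activity, the comparison behind the question of reversal that the series title raises. Of 32 genes 16 lay above 0 (50.7% of all genes did), with a median of 0.0003. This even split rested on exercised heterozygote 4: without it 3 lay above 0 (median -0.40), as without both libraries that stood apart (-0.41), and with limma-voom on all libraries 7 (-0.37). Col11a2 was the 1 gene called, lower in exercised heterozygotes (3.36 ± 1.10 to 1.42 ± 0.414 CPM, -1.23 on the log2 scale, SE 0.367, edgeR adjusted p = 0.0221), where 7.2% of all genes were called lower. It lost the call without wild type 1, exercised heterozygote 4 or exercised heterozygote 5, with values of -1.09 to -1.16. At an unadjusted p under 0.05 there were 4, against 25.8% of all genes. Without the 2 libraries that stood apart, Col4a1, Col4a2 and Col4a5 were called lower too (6.23% of all genes were called lower). This comparison and the exercise and genotype comparisons above share groups, and it crosses the sets.

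Markers of other cells moved beside some of these values. At 6 months the fibroblast markers, all 12 of which were detected, summed to 318 to 459 CPM in wild type and 316 to 665 in heterozygotes, which overlap. A sum follows its most abundant members: Gsn averaged 188.0 CPM in wild type and 242.5 in heterozygotes, and Fbln1 52.65 and 27.74. Gene by gene, 10 of the 12 markers had a log2 fold change above 0 (49.5% of all genes did). Their median was 0.63, beside 0.62 for the collagen genes. In 5 of them every heterozygote lay above every wild type (1.86% of all genes did so), and none passed edgeR's test (0.135% of all genes did). Such a gap was also found for 5 of 6 tested activated fibroblast markers (median 1.15) and 8 of 9 tested macrophage markers (1.40). It was found for 0 of 12 endothelial markers (0.38) and 0 of 9 tested pericyte and smooth muscle markers (0.50). Schwann (median 0.17), epicardial (-0.28) and tested adipocyte markers (-1.06) had no such gap either. Activated fibroblast markers (7 genes, Cthrc1 at 0 in 22 libraries) summed to 21.2 to 29.6 and 45.2 to 67.6 CPM, and macrophage markers (10 genes) to 18.1 to 33.9 and 53.05 to 106, both without overlap. Endothelial markers (12 genes) summed to 469.7 to 685 and 521 to 1086 CPM. The summed CPM of the 11 fibrillar genes was 0.326 ± 0.0616 of the fibroblast sum in wild type (0.257 to 0.378) and 0.593 ± 0.177 in heterozygotes (0.489 to 0.902), with no overlap. At 3 months the fibroblast sum was 245 to 409 CPM in wild type and 196 to 321 in heterozygotes. The macrophage sums were 20.0 to 35.5 and 13.8 to 29.3, and the endothelial sums 370 to 834 and 343 to 390. All 12 endothelial and 9 of 12 fibroblast markers had a genotype log2 fold change below 0 at that age (49.7% of all genes lay above). From 3 to 6 months in heterozygotes the medians were 1.41 for fibroblast, 1.06 for endothelial and 1.46 for macrophage markers, beside 1.01 for the 32 collagen genes. With age in heterozygotes, the fibroblast markers Dcn, Lum, Dpt and Mmp2 and the macrophage markers C1qa, C1qb, C1qc and Csf1r passed edgeR's test as higher beside the 5 collagen genes. So did the endothelial markers Cdh5, Erg and Robo4, the activated fibroblast marker Meox1 and the pericyte marker Rgs5. The myocyte gene Tnni3 was called lower. Of all genes 1.46% were called higher in that comparison, and 306 of 15587 lower. The part of these cells in the collagen differences was not tested.

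**Figure D5:**
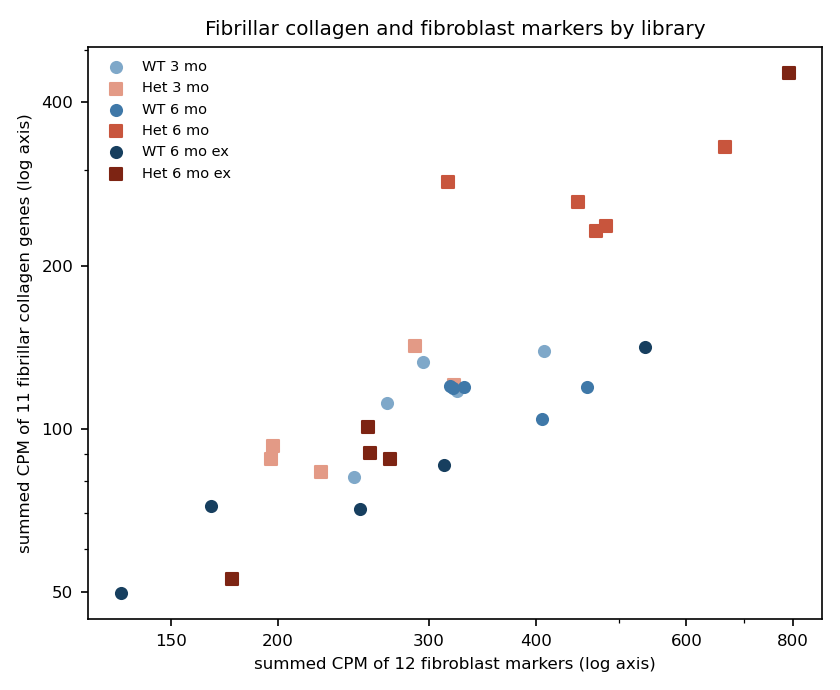
Summed CPM of the 11 fibrillar collagen genes against summed CPM of 12 fibroblast markers (both axes log), 1 point per library, coloured by group. The 5 heterozygotes at 6 months (Het 6 mo) lie at or above 231.6 CPM of fibrillar collagen, as does exercised heterozygote 4 at the top right, and the other 24 libraries lie at or below 142.3.

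Genes that fold, modify, cut and crosslink collagen were taken as a list of 31, of which 28 were tested. At 6 months Pcolce, which enhances cleavage of the procollagen C-propeptide, was the 1 member that differed by genotype (log2 fold change 1.23, SE 0.183, edgeR adjusted p = 0.000876). In the list, 19 of 28 lay above 0 with a median of 0.14. Over all genes 49.5% lay above 0 and 0.135% were called. Pcolce was also higher in heterozygotes with exercise (0.99, SE 0.183, edgeR adjusted p = 0.00560), where no collagen gene passed and 0.404% of all genes were called. With exercise in heterozygotes, 3 members fell: Serpinh1, the collagen chaperone HSP47 (-0.83, SE 0.138, edgeR adjusted p = 0.000165), Bmp1, the C-proteinase (-0.43, 0.0274), and Plod3, a lysyl hydroxylase (-0.46, 0.0439). Of all genes 3.48% were called lower there. The lysyl hydroxylase Plod2 rose (0.46, edgeR adjusted p = 0.0305), where 833 of all 15587 genes were called higher. In exercised wild type Bmp1 (-0.56), P3h4 (-0.88) and Colgalt1 (-0.30) fell, with edgeR adjusted p = 0.00394, 0.00334 and 0.0337, where 787 of all 15587 genes were called lower. With age, wild type had a higher level of Plod2 (0.58, edgeR adjusted p = 0.0310), as did 62 of all 15587 genes. With age in heterozygotes, 2 of 28 rose, P3h3 (1.25, edgeR adjusted p = 0.0276) and Colgalt2 (1.20, 0.0476), against 1.46% of all genes. Exercised heterozygotes had more Pcolce (1.36, edgeR adjusted p = 6.78e-06) and less Serpinh1 (-0.77, 0.000253) and P3h4 (-1.07, 0.000334) than regular-activity wild type, where 923 of all genes were called higher and 7.2% lower. No member was called at 3 months.

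Collagen receptors were a list of 9, all tested. The discoidin domain receptor gene Ddr2, which binds fibrillar collagen, rose with age in heterozygotes (1.33, SE 0.367, edgeR adjusted p = 0.0429), the 1 call among the receptors in any of the 10 comparisons. Of all genes 1.46% were called higher with age in heterozygotes. At 6 months all 9 had a genotype log2 fold change above 0, with a median of 0.60, and none passed edgeR's test, beside 49.5% of all genes above 0 and 0.135% called.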

How the data were processed

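Per the labels' protocols, RNA of cardiac myocytes was extracted with the miRNAeasy kit, ribosomal RNA was removed, and paired-end libraries that keep the strand were prepared (TruSeq RNA Library Prep Kit v2). The authors deposited unnormalized counts for each gene, all 30 libraries in 1 table. Trim Galore, HISAT2, featureCounts and mm10 are named per the submitters' processing notes, and versions, annotation and strand setting are not given in the sources used here. Of 52573 rows, 23 were spike-in controls and were left out.

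Counts were filtered with filterByExpr (15587 genes left), scaled with TMM factors and tested with edgeR 4.0.16 (quasi-likelihood F test, robust, limma 3.58.1, R 4.3.3) in 1 fit over the 30 libraries with 24 residual degrees of freedom, and p-values were adjusted by Benjamini-Hochberg over all genes tested. Calls were made at adjusted p under 0.05. The SE is the log2 fold change divided by the square root of F. Groups were taken from the labels, and 10 comparisons were made. Exon lengths came from GENCODE M21 (GRCm38).

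Values in every library were given for called members and for 13 collagen genes of the myocardial matrix, with up to 4 more per class by smallest p. In the lists of 31 and 9 genes called members were named with their fold changes only. Genes with the lowest levels and partner chains were named after their values were seen. The members and lists were chosen with earlier results of these data known.

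Alternatives were DESeq2 size factors in edgeR, no filter, the replicate number as a block, scaling without mitochondrial genes and 10 further abundant genes, a fit of the groups compared, limma-voom, DESeq2 1.42.0, a threshold of 0.01, leaving out each library, and leaving out 3 libraries with both Xist and Y-linked transcripts. The 3 libraries with both Xist and Y-linked transcripts were all wild type with regular activity, at 3 or 6 months. The limma-voom fits used quality weights for the libraries. For shares of counts the denominator was also taken without mitochondrial transcripts. Leaving out exercised wild type 1 with exercised heterozygote 4, the latter alone, or both exercised groups was chosen after seeing the data. A simulation of the genotype comparison at 6 months held 15117 genes. The test recovered 30% of genes changed 1.5-fold, 66% at 2-fold and 92% at 4-fold, with 3 false calls among 14917 unchanged genes. Only genes with a mean above 1 CPM were changed. Counts were drawn around 1 mean per gene, apart from the change, with no outlying library. These rates need not hold for the real counts.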

Additional observations from a re-analysis of the deposited data

Results flagged for a closer look

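In 120 groups of 5 libraries (17 collagen genes and 3 class shares), the highest or lowest library was checked for a gap to its neighbour above 0.71 of the group's range, which chance gives in about 1 group of 20. Of the 22 values found, 16 belonged to exercised heterozygote 4, each the highest of its group. Genes of 1 library are not independent, and the class shares are sums over collagen genes, so that rate is no yardstick for this number. Col12a1 and Col14a1 were among the 17 genes through their small p in genotype with exercise, a comparison that this library enters. In that library Col1a1 was at 26.4 CPM (next highest 5.74), Col1a2 at 115 (22.7), Col3a1 at 229 (44.0) and Col5a2 at 44.5 (7.74). Col4a1 was at 465 CPM (205) and Col4a2 at 313 (156). Among type VI genes Col6a1 was at 67.5 CPM (26.2), Col6a2 at 37.2 (10.6) and Col6a3 at 22.1 (9.38). Col8a1 was at 49.5 CPM (8.71), Col12a1 at 4.85 (0.629), Col14a1 at 18.8 (2.45) and Col15a1 at 36.7 (13.9). The shares of all counts were 0.0471% for fibrillar (next highest 0.00818%), 0.0903% for basement membrane (0.0362%) and 0.0278% for other genes (0.00706%).

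The other 6 values belonged to other libraries, and their gaps were not all smaller. The gap was 0.941 of the range for Col1a2 in wild type 3 at 6 months. In exercised heterozygote 4 the gaps ran from 0.733 (Col6a1) to 0.973 (Col14a1). Col5a1 was at 24.45 CPM in heterozygote 3 at 6 months (next highest 16.9), at 17.3 in wild type 1 at 6 months (12.1) and at 12.1 in exercised wild type 1 (8.32). Col8a1 was at 10.8 CPM in exercised wild type 1 (4.28). Col1a2 was at 25.8 CPM in wild type 3 at 6 months (22.7), and Col4a2 at 395 CPM in wild type 3 at 3 months (266).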

How the results depend on the processing

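The number of collagen genes called moved by over 1.5 times in 6 of the 10 comparisons. For genotype at 6 months it was 0, and it was 9 in a fit of the groups compared, 7 with limma-voom, 1 with DESeq2, 5 without exercised wild type 1 and heterozygote 4, 4 without the latter alone and 5 without both exercised groups. For exercise in wild type, 0 became 9 with limma-voom and 6 without exercised wild type 1 and heterozygote 4. For exercise in heterozygotes, 2 became 1 without a filter, 15 with limma-voom, 6 with DESeq2, 0 at a threshold of 0.01 and 15 without both libraries, and 1 to 14 when single libraries were left out. For exercised heterozygotes against regular-activity wild type, 1 became 2 without a filter, 0 with limma-voom, 0 at 0.01 and 4 without both libraries, and 0 to 1 with single libraries left out. There the 1 call was Col11a1, not Col11a2, without the 3 libraries with Xist and Y-linked transcripts. Col11a1 was among the 12 genes left out of the main fit and was higher in exercised heterozygotes. Its counts were 12, 1, 0, 16 and 3 in exercised heterozygotes 1 to 5 and 0 in regular-activity wild type at 6 months. It passed the filter of that fit through heterozygotes, the side where it was higher, so this call adds no support. For age in heterozygotes, 5 became 1 without a filter, 13 in the groups' own fit, 12 with limma-voom, 11 with DESeq2, 0 at 0.01, 12 without both libraries, 10 without exercised heterozygote 4 and 11 without both exercised groups, and 0 to 5 with single libraries left out. For the interaction with age, 0 became 2 in the groups' own fit, without both libraries, and without both exercised groups. Without mitochondrial transcripts the collagen share was 0.0983% in wild type against 0.163% in heterozygotes at 6 months and 0.0798% in exercised wild type.

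Some log2 fold changes changed sign. For genotype with exercise, Col18a1 was at 0.15 with limma-voom and 0.0062 without both libraries. With single libraries left out it ran from -0.37 to 0.23, Col4a1 from -0.28 to 0.48, Col4a2 from -0.33 to 0.22, Col6a1 from -0.15 to 0.73, Col6a2 from -0.21 to 0.81, Col6a3 from -0.22 to 0.57, Col15a1 from -0.32 to 0.65 and Col1a2 from -0.15 to 1.19. For exercise in heterozygotes Col8a1 was at -0.0070 with the replicate block, -0.58 with limma-voom and -1.06 without both libraries, and from -1.03 to 0.49 with single libraries left out. For age in heterozygotes Col11a2 ran from -0.41 to 0.0008. The cause was not tested beyond the libraries left out.

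The replicate numbers did not pair the samples: same-numbered samples correlated at -0.252 to 0.154, and 0 to 3 of 5 correlated best with their own number. With the number as a block the counts of called genes were the same, 5 with age and 2 with exercise in heterozygotes, 1 in exercised heterozygotes against regular-activity wild type, and 0 elsewhere. Depth limits the 12 genes with at most 149 counts in all libraries together.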
